A study of Mus musculus with 4 samples.

Results

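Introns make up most of the body of a very long gene. H3K36me3 peaks inside the introns of such genes were followed here in control and Setd2-KO renal primary tubular epithelial cells (PTECs). The members were the peaks on chromosomes 1 to 19 whose midpoint fell inside a protein-coding gene body of 100 kb or more, outside every annotated exon and more than 1 kb from any coding transcript start. Where genes overlapped, the longest one was assigned. The rule selected 1501 of 12242 control peaks (12.3%, 95% exact binomial interval 11.7 to 12.9%) and 260 of 2732 Setd2-KO peaks (9.52%, 8.44 to 10.7%). Fold enrichment and overlap between the lists played no part in the choice.

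The cells came from the kidney cortex of C57BL/6 mice. Control cells carried SETD2fl/fl alleles without Cre, and Setd2-KO cells carried SETD2fl/fl with KspCre/+, in which a kidney-specific promoter drives Cre, so the floxed alleles were common to both groups. Each genotype had 1 H3K36me3 ChIP library and 1 input library, so no difference between genotypes could be set against replicate spread and no p-value is given. Intervals cover counting error only. They treat each peak as independent, although many members lie near others in the same gene, so they may be too narrow. Read totals were not used here. The genome-wide background implied by the peak caller was 6.58 fragments in control and 6.54 in Setd2-KO, and the peaks give no measure of how completely the Setd2 allele was recombined. Of 20 proximal tubule marker genes, 13 held a control peak and 6 a Setd2-KO peak. None of 16 markers of later nephron segments (loop of Henle to collecting duct) held a peak in either list, and 3 of 26 markers of podocytes, endothelium, fibroblasts and immune cells (Podxl, Kdr and Eng) held one in control. Of all 2372 coding genes of 100 kb or more, 584 held a control peak. The share over coding genes of every length is not given here, so the marker counts are descriptions only. The Setd2-KO list was also smaller as a whole, with 2732 peaks against 12242.

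SETD2 is the methyltransferase that adds the third methyl group to a lysine in the tail of histone H3, giving H3K36me3. It travels with elongating RNA polymerase II, so the mark is laid down over the bodies of transcribed genes, commonly rises towards their 3′ end and is often denser on exons than on introns. In a very long gene the polymerase crosses many introns, some of them longer than most genes, before it reaches the end.

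Sequences of 200 bases, with CpG dinucleotides in capitals, are given around 4 summits, each the highest of its kind in introns of long genes. They are the genomic plus strand of GRCm38, as in RefSeq. The first is the control member of highest fold enrichment that overlapped a Setd2-KO peak, in intron 8 of 17 of Nt5c2, which encodes a cytosolic nucleotidase (chr19:46897277-46897476). The next is the highest control member without a Setd2-KO peak, in intron 87 of 115 of Syne2, a giant protein of the nuclear envelope (chr12:76053729-76053928). The next one is the highest Setd2-KO member, in intron 41 of 47 of Smchd1, a chromatin protein needed for X inactivation (chr17:71361387-71361586). The last is the highest Setd2-KO member without a control peak, in intron 7 of 10 of Numb, a Notch pathway inhibitor (chr12:83805933-83806132).
Nt5c2: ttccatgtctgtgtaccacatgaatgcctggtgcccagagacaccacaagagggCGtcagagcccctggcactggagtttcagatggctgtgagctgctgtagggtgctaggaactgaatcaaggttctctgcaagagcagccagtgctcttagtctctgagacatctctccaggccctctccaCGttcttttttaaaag
Syne2: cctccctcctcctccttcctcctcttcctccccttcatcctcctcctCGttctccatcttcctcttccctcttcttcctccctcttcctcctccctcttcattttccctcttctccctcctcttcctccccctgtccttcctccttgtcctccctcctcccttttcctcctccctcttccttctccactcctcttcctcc
Smchd1: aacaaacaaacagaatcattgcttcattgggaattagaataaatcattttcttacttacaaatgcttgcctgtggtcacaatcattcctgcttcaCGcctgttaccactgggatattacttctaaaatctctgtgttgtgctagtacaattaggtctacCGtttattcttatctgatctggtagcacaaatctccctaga
Numb: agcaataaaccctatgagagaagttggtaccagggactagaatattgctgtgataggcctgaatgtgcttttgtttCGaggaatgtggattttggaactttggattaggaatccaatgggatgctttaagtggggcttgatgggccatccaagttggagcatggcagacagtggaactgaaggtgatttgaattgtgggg

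The Nt5c2 and Smchd1 windows each held 2 CpG, and the Syne2 and Numb windows 1 each. The Syne2 window is a pyrimidine-rich simple repeat of which the genome file masks all 200 bases. Masked bases numbered 182 in the Nt5c2 window, 117 in the Numb window and 19 in the Smchd1 window, so 3 of these 4 windows were mostly repeat sequence. Over all 1501 control members the median window held 2 CpG, and 22.0% of windows held none. The same values in Setd2-KO members were 2 and 21.5%. Across whole peaks, including flanks that touch exons, control members had a mean GC content of 45.9% and a mean of 11.3 CpG per kb. The average over all eligible intron of these genes was 41.8% GC and 8.03 CpG per kb. Setd2-KO members had 45.1% GC and 7.99 CpG per kb. The mean masked share was 27.8% in control members and 30.8% in Setd2-KO members, beside 28.1% of eligible intron.

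Per Mb of intron, peaks were sparse in very long genes. The annotation holds 2372 protein-coding genes of 100 kb or more, with 559 Mb of eligible intron (intron outside all exons and promoters), and these carried 2.69 control peaks and 0.466 Setd2-KO peaks per Mb. In the 302 Mb of eligible intron of shorter coding genes there were 19.8 control and 3.99 Setd2-KO peaks per Mb. Eligible bases over 5 kb from a coding exon made up 61.9% in long genes and 16.9% in shorter ones. Within 0.5 kb of such an exon, control density was 20.3 per Mb in long genes and 47.3 in shorter ones. Control density was 25.8 per Mb in genes of 10 to 50 kb and 13.2 in genes of 50 to 100 kb. It was 7.28 per Mb at 100 to 150 kb, 4.20 at 150 to 250 kb, 1.19 at 250 to 500 kb and 0.306 at 500 kb to 1 Mb. Setd2-KO density fell along the same bands from 5.28 to 0.0766 per Mb. Just outside the length limit, 143 genes of 95 to 100 kb held 93 control and 12 Setd2-KO intronic peaks. Just inside it, 149 genes of 100 to 105 kb held 132 and 33.

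**Figure D1:**
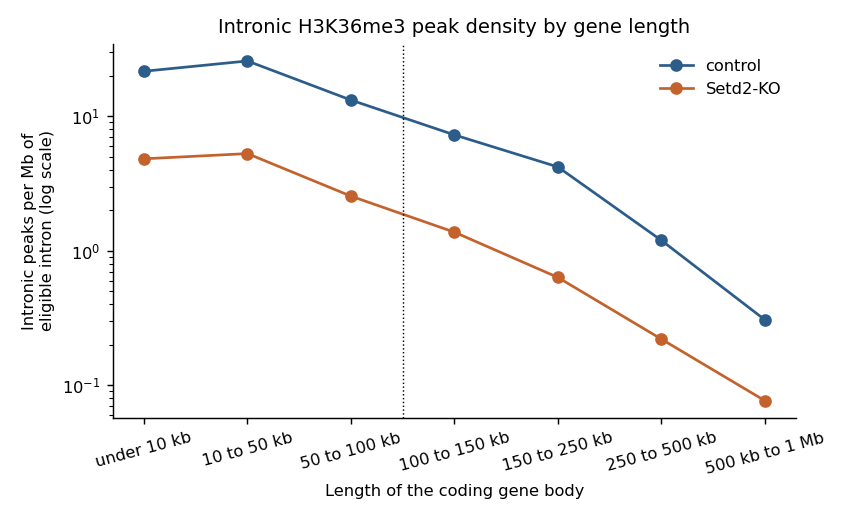
Intronic peaks per Mb of eligible intron (log scale) by the length of the coding gene body, for the control and Setd2-KO lists. The dotted line marks the 100 kb limit, and genes of 1 Mb or more are left out because 44 of their 45 control peaks lay in another coding gene as well. Control density goes from 25.8 per Mb at 10 to 50 kb to 0.306 at 500 kb to 1 Mb, with the Setd2-KO line below it throughout.

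The peaks called in long genes were close to those in shorter genes in median strength and length. Median fold enrichment over the local background was 3.83 in control members and 3.83 in control intronic peaks of shorter genes, with 3.85 for both parts of the Setd2-KO list. Median pileup at the summit was 29 fragments in control members and 30 in Setd2-KO members. Control members had a median length of 392 bp beside 408 bp in shorter genes, and Setd2-KO members 364 bp beside 374 bp. Peaks of 1 kb or longer made up 2.53% of control members (1.80 to 3.46%) and 5.42% of control peaks in shorter introns (4.86 to 6.03%). In Setd2-KO the shares were 3.85% (1.86 to 6.96%) and 3.90% (2.88 to 5.15%).

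In both genotypes the members crowded towards the end of the gene. Each gene body was cut into 5 sections of equal length, numbered from its start. Of the control members, 46.1% (43.6 to 48.7%) lay in section 5, which held 18.9% of eligible intron bases. Section 1 held 5.86% of control members (4.73 to 7.17%) and 20.0% of eligible bases. Sections 2 to 4 held 8.19%, 14.9% and 25.0%, so the share increased at every step. In Setd2-KO the shares were 5.77%, 10.4%, 17.7%, 25.0% and 41.2%, and the interval for section 5, 35.1 to 47.4%, overlapped that of control. Per Mb of eligible intron, control density was 0.788 in section 1 and 6.57 in section 5. In shorter genes section 4 held the highest control share (30.9%, 29.8 to 32.1%, of peaks and 21.3% of bases) and section 5 held 25.6% (24.5 to 26.8%) on 15.7% of bases. Control density there also increased at every step, from 4.83 per Mb in section 1 to 28.7 in section 4 and 32.2 in section 5.

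**Figure D2:**
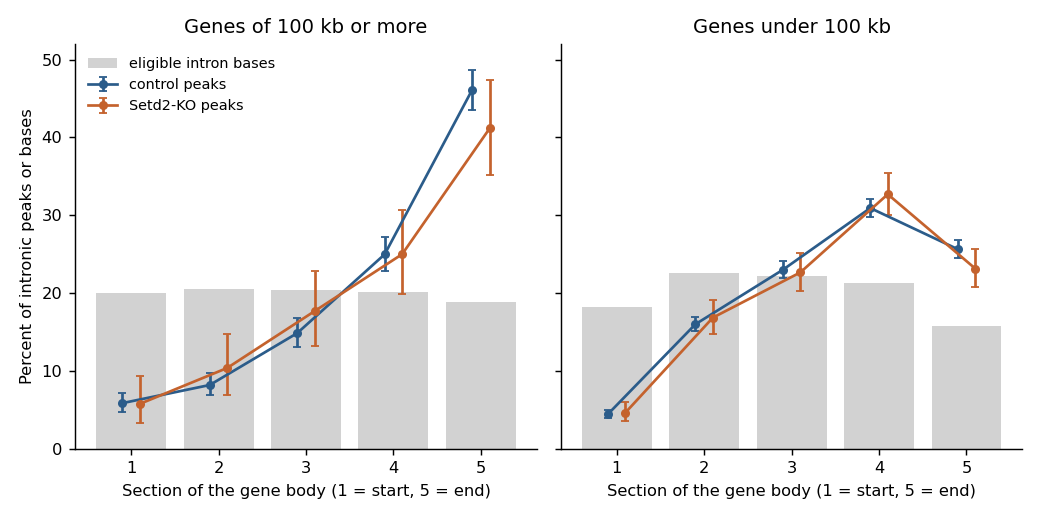
Share of intronic peaks in each of 5 equal sections of the gene body, from start to end, for control and Setd2-KO peaks with 95% exact binomial intervals, over grey bars for the share of eligible intron bases. In genes of 100 kb or more, section 5 holds 46.1% of control and 41.2% of Setd2-KO peaks against 18.9% of bases. In shorter genes section 4 has the highest control share, 30.9% on 21.3% of bases, and section 5 has 25.6% on 15.7%.

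The members also lay close to exons. The midpoints of 860 of 1501 control members (57.3%, 54.7 to 59.8%) were within 0.5 kb of an exon of a coding gene, where 7.58% of eligible bases are found. Over 5 kb from any such exon, where 61.9% of eligible bases are found, there were 44 control members (2.93%, 2.14 to 3.92%). Control density was thus 20.3 per Mb in the first of these bands and 0.127 in the last. Setd2-KO had 60.8% of members (54.5 to 66.7%) within 0.5 kb and 7.69% (4.76 to 11.6%) over 5 kb away. The last share was larger than in control, but the intervals cover counting error in single libraries only. In shorter introns the shares over 5 kb away were 0.786% (0.578 to 1.04%) in control and 1.74% (1.08 to 2.65%) in Setd2-KO. With a flank, 33.4% of control and 33.5% of Setd2-KO members touched an annotated exon.

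**Figure D3:**
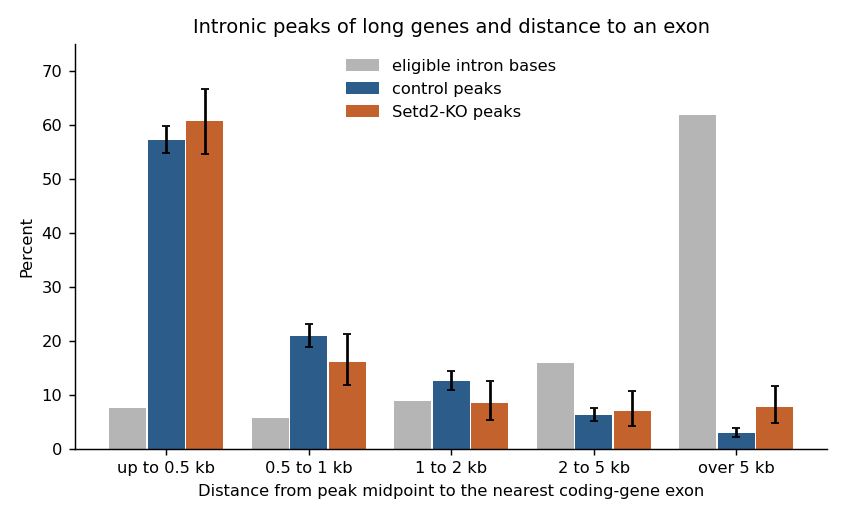
Distance from the peak midpoint to the nearest exon of a coding gene, as the percent of eligible intron bases (grey), control members and Setd2-KO members, with 95% exact binomial intervals. Within 0.5 kb stand 57.3% of control and 60.8% of Setd2-KO members against 7.58% of bases.

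Exons are themselves more closely spaced near the end of these genes. Eligible bases within 1 kb of a coding exon made up 7.26% of section 1 and 25.1% of section 5. Among bases within 1 kb of an exon, control density went from 7.03 per Mb (exact Poisson interval 5.33 to 9.11) in section 1 to 21.0 (19.3 to 22.9) in section 5. The corresponding Setd2-KO densities were 0.987 (0.426 to 1.95) and 3.21 (2.56 to 3.97), with 2.79 and 3.08 in sections 3 and 4. Beyond 1 kb, control density went from 0.299 to 1.71 per Mb and Setd2-KO density from 0.0676 to 0.279. Section 5 thus had a higher density than section 1 on both sides of the 1 kb limit in both lists. Beyond 1 kb the steps were uneven, with control at 0.276 per Mb in section 2. Setd2-KO densities there rested on 7 members in section 1 and 22 in section 5. The part of exon spacing in the crowding was not tested.

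First introns were almost free of peaks once those in a second coding gene were set aside. Introns were numbered in the coding transcript with the most exons, for the 1400 control and 247 Setd2-KO members that lay in an intron of it and in no other coding gene. All 38 control members of Gm20388 were thereby left out, while the base shares below keep bases that also lie in a second coding gene. First introns hold 21.2% of the eligible bases of long genes, and 4 control members (0.286%, 0.0779 to 0.730%) were found there. No Setd2-KO member was, which allows a share of up to 1.21% at 3 counts. The 4 peaks, named after their values were seen, were a pair in Lrp2 and 1 each in Ndufs4 (chr13:114382664-114382957, fold enrichment 4.48) and Pde1a (chr2:79932323-79932699, fold enrichment 3.29). In shorter genes 0.962% of control intronic peaks (0.728 to 1.25%) were in first introns, which hold 25.5% of eligible bases. Last introns held 98 control members (7.00%, 5.72 to 8.46%) and 15 Setd2-KO members (6.07%, 3.44 to 9.82%), on 5.31% of eligible bases. In shorter genes the shares were 12.7% (11.9 to 13.6%) in control and 13.9% in Setd2-KO, on 11.9% of eligible bases.

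Most members were in introns of moderate length. Introns under 2 kb held 40.3% of control members, introns of 2 to 10 kb held 47.5%, and introns of 50 kb or more held 23 members or 1.64%. In introns of 10 to 50 kb the median control member was 1404 bp from an exon, and 28 of 148 were over 5 kb away. In Setd2-KO the shares were 38.1%, 44.1% and, with 8 members, 3.24%. Members also sat near each other, since 50.8% of control members and 23.1% of Setd2-KO members had another member of their list within 5 kb in the same gene. The lists differ in size, at 1501 and 260 members, so these shares do not compare clustering between the genotypes.

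Fewer intronic peaks of long genes were called in Setd2-KO than in control. The ratio of control to Setd2-KO members was 5.77 (5.06 to 6.61), beside 4.96 (4.66 to 5.28) in shorter introns and 4.48 (4.30 to 4.67) over all peaks. Of the control members, 137 (9.13%, 7.72 to 10.7%) overlapped a Setd2-KO peak by at least 1 bp. The share over all control peaks was 12.9%, and in introns of shorter genes it was 11.1% (10.3 to 11.9%). The members' interval lay below that of all peaks and overlapped that of shorter introns, but these intervals treat neighbouring peaks as independent. Conversely, 135 Setd2-KO members (51.9%, 45.7 to 58.1%) overlapped a control peak, against 61.3% of all Setd2-KO peaks and 56.9% (54.1 to 59.7%) in shorter introns. Counting peaks up to 1 kb apart as one place, the shares were 14.9% of control and 67.7% of Setd2-KO members.

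Overlap was more frequent for strong and for long peaks. Control members with a fold enrichment under 3.5 overlapped a Setd2-KO peak in 7.69% of cases and those at 5 or more in 29.7% (18.9 to 42.4%). In shorter introns the values were 7.85% and 44.8% (39.1 to 50.6%). Of control members under 350 bp, 5.29% overlapped, and of those of 1 kb or longer, 39.5% (24.0 to 56.6%), beside 5.39% and 48.1% (42.6 to 53.7%) in shorter introns. By position along the gene, 7.95% overlapped in section 1 (3.26 to 15.7%) and 9.54% in section 5 (7.45 to 12.0%), with overlapping intervals. Members over 5 kb from an exon overlapped in 11 of 44 cases (25.0%), against 8.95% within 0.5 kb. By gene length the shares were 10.5% at 100 to 150 kb (8.34 to 12.9%), 7.63% at 150 to 250 kb (5.46 to 10.3%) and 8.42% at 250 to 500 kb (4.89 to 13.3%), with overlapping intervals.

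Each of the 137 control members that overlapped a Setd2-KO peak was paired with it, and fold enrichment was lower in Setd2-KO in 74 pairs (54.0%). A Setd2-KO peak that overlapped more than 1 control member enters once for each. Median fold enrichment in the pairs was 3.99 in control and 3.92 in Setd2-KO. The median ratio of Setd2-KO to control was 0.972, with quartiles at 0.861 and 1.14. Each value was read at the peak's own summit. The summits of a pair were a median of 157 bp apart, and within 200 bp in 78 pairs. Median lengths were 551 and 401 bp, and the Setd2-KO peak was the shorter in 93 pairs. The strongest pair was that of Nt5c2, with a fold enrichment of 8.31 in control (chr19:46897120-46897920, 65 fragments) and 4.39 in Setd2-KO (chr19:46897247-46897756, 45 fragments). In Fat1, an atypical cadherin, the control peak (chr8:45040520-45042737) had a fold enrichment of 7.19 and overlapped a pair of Setd2-KO peaks. The Setd2-KO peak with the larger overlap, used in the comparison, had 4.77 (chr8:45041653-45042592), and the other, with its summit 73 bp from that of control, had 5.57 (chr8:45040084-45041391). In Smchd1 the order was the other way round, with 2.69 in control (chr17:71361121-71361606, 25 fragments) and 5.29 in Setd2-KO (chr17:71361247-71361752, 39 fragments). Only places that passed the caller in both libraries enter this comparison.

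**Figure D4:**
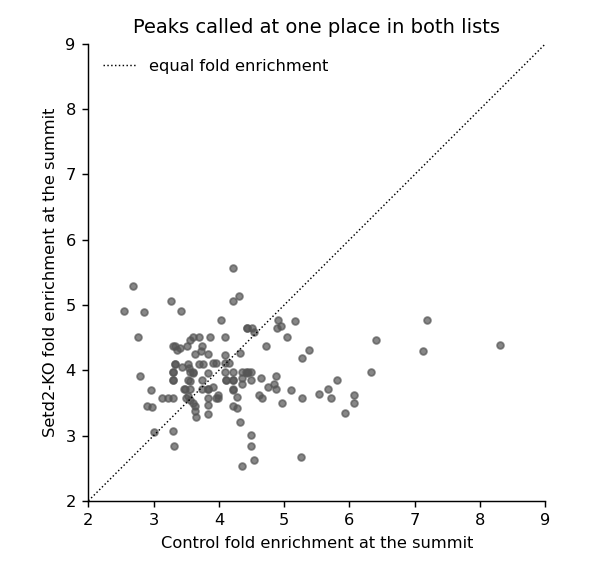
Fold enrichment at the summit of each control member (x axis) and of the Setd2-KO peak that overlaps it (y axis), 1 point for each of 137 control members. Points fall on both sides of the dotted line of equal values, 74 of them below it, and the Nt5c2 place lies farthest to the right at 8.31 and 4.39.

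Genes with a member were a minority of long genes. A control member was found in 471 of 2372 genes (19.9%, 18.3 to 21.5%) and a Setd2-KO member in 180 (7.59%, 6.55 to 8.73%). Both kinds occurred in 149 genes, control members alone in 322 and Setd2-KO members alone in 31. Of the 18435 coding genes under 100 kb, 13.8% held a control intronic peak and 4.48% a Setd2-KO one, both lower shares. They include 7287 genes under 10 kb, with 2.69% and 0.645%. Genes of 10 to 50 kb had 19.7% and 6.11%. Genes of 50 to 100 kb had 25.7% and 10.1%, both higher shares than in long genes. Of the 471 genes, 293 had no Setd2-KO peak anywhere in the gene body. The matching share in shorter genes is not given here. The whole Setd2-KO list held 2732 peaks against 12242, so this count is a description only. Of the 149 genes, 116 had more control than Setd2-KO members and 30 had equal numbers. The remaining 3, named after their values were seen, were Smchd1 with 1 control and 3 Setd2-KO members, and Rbpms and Sgk1 with 1 and 2 each. Control members were concentrated, since 32 genes with 10 or more held 466 of them (31.0%, 28.7 to 33.5%) while 210 genes held a single one.

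Ubr4, a very large ubiquitin ligase of the N-degron pathway, had the most members of any gene with peaks of its own. Its body of 136980 bp (chr4:139352609-139489588) held 36 control members in 30 of its 105 introns, with fold enrichments from 2.94 to 5.28. Setd2-KO had 5 members there, and 5 of the 36 control members overlapped a Setd2-KO peak. Counting exonic peaks too, 46 control peaks covered 17.2% of the gene and 7 Setd2-KO peaks covered 2.23%. The chromatin remodeller gene Chd2 (chr7:73426638-73541830) held 25 control members and 8 Setd2-KO members, the highest Setd2-KO number of any long gene. Its control members spread over 15 of 38 introns, 6 of them in intron 37, and peaks of all kinds covered 12.5% of the gene in control and 3.59% in Setd2-KO. Atf7ip, a cofactor of heterochromatin silencing, had 3 Setd2-KO and 5 control members, and Tns1, the focal adhesion protein tensin, had 3 and 18.

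Several cytoskeletal and membrane traffic genes ranked next in control. Wdfy3, an autophagy adaptor, had 21 control and 2 Setd2-KO members, and Syne2 had 19 and 2. Vps13d, a lipid transfer protein, had 19 and 2 with no overlap between the lists. Macf1, which links actin and microtubules, had 15 and 3. Itpr1, the calcium release channel of the endoplasmic reticulum, had 13 and 3. Position differed among these genes. In Rgl1, a Ral guanine exchange factor, 13 of 17 control members lay in section 5, the median being 89.3% of the way along the gene. In Vps13d none of 19 did, and the median was at 40.5%.

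**Figure D5:**
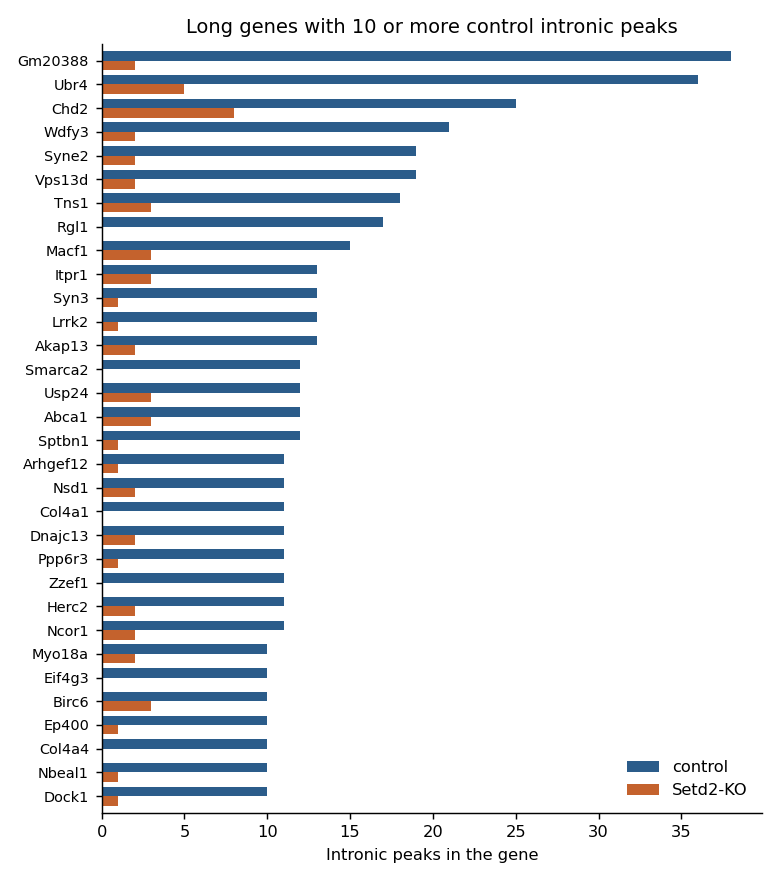
Number of intronic peaks per gene (bars) in control and Setd2-KO for the 32 genes of 100 kb or more with at least 10 control members. Setd2-KO bars are shorter in every gene shown and absent in Rgl1, Smarca2, Col4a1, Zzef1, Eif4g3 and Col4a4. All 38 control peaks of Gm20388 and all 13 of Syn3 also lie in other coding genes.

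The genes with the most control members and no Setd2-KO peak anywhere in the body were Rgl1 with 17, Smarca2 with 12, Col4a1 and Zzef1 with 11 each, and Eif4g3 and Col4a4 with 10 each. Smarca2 encodes a catalytic subunit of the SWI/SNF remodeller (chr19:26605050-26778322). Its members ran from intron 3 to intron 32 of its 33, and the highest, at chr19:26649500-26650040, had a fold enrichment of 5.47 with 43 fragments. Col4a1 and Col4a4 encode collagen chains of basement membrane. In Col4a1 (chr8:11198423-11312826) the 11 fold enrichments ranged from 2.66 to 4.09. In Rgl1 (chr1:152516760-152766351) the highest was 5.10, at chr1:152523934-152524888.

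A smaller set went the other way. In 22 genes a Setd2-KO member stood in a gene with no control peak at all, a description only, since the matching share in shorter genes is not given. Over all Setd2-KO members the median fold enrichment was 3.85 and the upper quartile 4.15. The highest in the 22 genes was in Galk2, a sugar kinase (chr2:125954421-125955269, fold enrichment 4.63, 34 fragments). That peak was 94.0% masked and lay 7495 bp from the nearest coding exon. Bcas3 followed at 4.38, and Acacb, the mitochondrial acetyl-CoA carboxylase, stood at 4.24. Rsu1 and the Ras regulator Nf1 stood at 4.11 each. Of the 125 Setd2-KO members that overlapped no control peak, 41 were within 1 kb of one and 102 (81.6%, 73.7 to 88.0%) lay in a gene that had a control peak elsewhere. In Numb the Setd2-KO peak at chr12:83805597-83806396 had a fold enrichment of 4.89. It was adjacent to a control peak at chr12:83806413-83806850 with a fold enrichment of 3.86.

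Gene groups differed in how many of their long genes held a member. The groups were drawn up with earlier results of these data known, so their counts are descriptions beside the 19.9% of all long genes with a control member and the 7.59% with a Setd2-KO member. Chromatin regulators had control members in 27 of 40 long genes (67.5%, 50.9 to 81.4%) and Setd2-KO members in 13. Besides Chd2 and Smarca2 they included Nsd1, an H3K36 methyltransferase, with 11 control and 2 Setd2-KO members. Endocytosis and membrane traffic genes had control members in 32 of 61 and Setd2-KO members in 16. Ubiquitin ligases and proteases had 21 and 13 of 42, where Usp24 had 12 control and 3 Setd2-KO members and Herc2 had 11 and 2. Adhesion, junction and cytoskeleton genes had 38 and 14 of 77, among them the spectrin gene Sptbn1 with 12 control members and 1 Setd2-KO member.

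Kinases, phosphatases and growth factor receptors had control members in 33 of 79 genes and Setd2-KO members in 10. In 2 of the 33, Fgfr2 and Ulk4, every control member also lay in another coding gene. The insulin receptor gene Insr had 7 and 2, and Notch2 had 7 and 1. Metabolic genes had 10 and 5 of 38, and in 1 of the 10, Atp5o, the single control member also lay in another coding gene. Abca1, a cholesterol exporter, led them with 12 control and 3 Setd2-KO members. In Bckdhb, a subunit of the branched-chain keto acid dehydrogenase, both control members overlapped Setd2-KO members, and their fold enrichments were 3.56 and 3.56 in control and 4.46 and 3.83 in Setd2-KO. Transcription factor genes had 11 and 2 of 48, with 7 control members and 1 Setd2-KO member in Zmiz1 and 6 and 0 in Cux1.

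Among 25 long genes of tubule transport and identity, 8 held a control member and 3 a Setd2-KO member. Lrp2, the megalin receptor by which proximal tubule takes up filtered protein, had 7 control members and no Setd2-KO peak. The highest of them, at chr2:69583912-69584869 with a fold enrichment of 5.14, was in intron 1, only 1.04% of the way along the gene. Dab2, an adaptor for megalin, had 4 control members and no Setd2-KO member, though 1 Setd2-KO peak that was not a member lay in its body. Ank3 had 3 control members and no Setd2-KO peak. The 3 genes with Setd2-KO members, named after their values were seen, were Pkhd1 with 2 members in each list, and Bicc1 and Glis3 with 1 Setd2-KO member and no control peak.

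Among 27 genes at common fragile sites, with a median length of 1125 kb, 4 held a control member (14.8%, 4.19 to 33.7%), an interval that includes the 19.9% of all long genes. They included Usp25, of 103075 bp, with 2, and Macrod2 and Rora with 1 each. Setd2-KO members occurred in 2 of the 27 (7.41%). Macrod2 spans 1997658 bp and its control peak, at chr2:142355319-142355971 with a fold enrichment of 3.41, lay 98.1% of the way along the gene and 18586 bp from the nearest exon. None of 97 long neuronal genes held a control member, which allows a share of up to 3.09% at 3 counts. In Setd2-KO 1 did, Kcnip4, named after its value was seen, and that peak also lay in another coding gene, 5730480H06Rik. The neuronal genes had a median length of 713 kb, and among all genes of 500 kb to 1 Mb only 8.59% held a control member.

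Some gene bodies in the annotation are long because a read-through transcript spans several genes, and their peaks need to be read with the inner genes. The gene model Gm20388 spans 4434882 bp of chromosome 8 and was assigned 38 control members, all of them inside 14 other coding genes such as Gas8 with 8 and Tcf25 with 4. All 6 control members of Fgfr2, annotated over 2960900 bp, lay in 3 other genes, and 4 of them in Tacc2. All 13 control members of Syn3 lay in Timp3, an inhibitor of metalloproteinases nested inside it. In all, 99 control members (6.60%) and 11 Setd2-KO members (4.23%) were inside more than 1 coding gene. For 79 of the 99, the longest inner gene was itself shorter than 100 kb.

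By chromosome the ratio of control to Setd2-KO members ranged from 1.94 on chromosome 17 to 9.29 on chromosome 8. Chromosome 17 had 31 control and 16 Setd2-KO members, and 8 of the 31 overlapped a Setd2-KO peak. Chromosome 8 had 130 and 14, of which 38 and 2 belonged to Gm20388.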

How the data were processed

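H3K36me3 ChIP DNA and input DNA were sequenced from control and Setd2-KO PTECs (4 libraries, 1 ChIP and 1 input per genotype). Per the labels, the authors trimmed reads with cutadapt 1.9.1 and Trimmomatic 0.35, aligned them to GRCm38 with Bowtie2 2.2.6 and called peaks of each ChIP against its own input with MACS2 2.1.1. The study states a p-value threshold of 0.01 in one place and an FDR with a fold minimum of 5 in another. The lists were used whole, and 5.66% of control and 7.50% of Setd2-KO peaks reached that fold. The study's methods describe the ChIP material in one place as cyst or tumour tissue, whereas the labels name PTECs, which were followed here. The deposited lists give for each peak the signal at the summit (pileup, in fragments), the fold enrichment over local background (a ratio) and the −log10 p-value and −log10 q-value. No read counts or depths were used, so precision is limited to counting error on numbers of peaks.

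Peaks were assigned to GENCODE M21 genes by their midpoint. Overlap meant at least 1 bp. Intervals are exact (Clopper-Pearson for shares, Poisson for densities, conditional binomial for ratios) at 95%, computed with Python 3.11.15 and scipy 1.17.1 after a check on simulated peaks. For a count of 0 the text gives the share at 3 counts instead. The exact upper limits are higher, 1.48% for Setd2-KO members in first introns and 3.73% for neuronal genes with a control member. Distances and introns refer to annotated exons, and masked bases are those in lower case in the RefSeq GRCm38 genome. The transcript with the most exons, used to number introns, was chosen after seeing the data. Members, gene groups and marker lists were chosen with earlier results of these data known. The text names the genes with the most members in either list, those with members in a single list, the strongest peaks, the longest genes and up to 3 genes of each group. Alternatives were other peak positions, length limits, exon, promoter and gene-body rules, peak thresholds and definitions of overlap. No test between genotypes was made. Some genes and 1 gene group that met these rules are not reported here.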

Additional observations from a re-analysis of the deposited data

How the results depend on the processing

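No paired analysis was possible because each genotype had 1 ChIP library and no test was made. The 7 main results were recomputed under the alternatives, of which 4 were chosen after seeing the data (starts of every transcript of a coding gene, Gm20388 left out, gene bodies of 1 Mb or more left out, pileups of 100 or more left out). The ratio of control to Setd2-KO members stayed between 5.58 and 6.34 and inside its interval in all 14. Raising the length limit to 150 kb left 765 control members, 121 Setd2-KO members and 233 genes with a control member. At 200 kb these were 482, 76 and 137, and the share of control members in the last of 5 sections was 49.4%. Keeping only peaks wholly outside exons left 1000 control and 173 Setd2-KO members. Keeping only peaks with a fold enrichment of 4 or more left 498 and 87 in 263 genes with a control member. By construction the other list was thinned too, and 5.22% of control and 28.7% of Setd2-KO members then overlapped a peak of the other list. Asking for overlap of 50% of the shorter peak gave 7.00% and 41.9%, and counting peaks within 1 kb gave 14.9% and 67.7%. The other 84 of 102 values stayed within 1.5 times the count or inside the interval. With 1 library per genotype, the efficiency of a ChIP cannot be told apart from genotype in any of these numbers, while the background pileups were 6.58 and 6.54 fragments.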

Other observations

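Overlap was also compared by repeat content. Control members with no masked base overlapped a Setd2-KO peak in 10 of 202 cases (4.95%, 2.40 to 8.92%), and those at least 75% masked in 21 of 114 (18.4%, 11.8 to 26.8%). The classes between, up to 50% and 50 to 75% masked, had 9.25% and 7.37%, so the share did not increase at every step. In introns of shorter genes the 4 classes had 6.12%, 11.7%, 12.4% and 10.9% (7.67 to 14.9%), with the most masked class below both middle ones. Members at least 90% masked made up 3.73% of the control members and 6.54% of the Setd2-KO members. The part of read mapping in repeats in these values was not tested.

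A pair of members had pileups far above the rest, with low enrichment over input. In Chl1, a neuronal adhesion gene, a Setd2-KO peak at chr6:103648974-103649478 had 47579 fragments at a fold enrichment of 1.20. In 2210408I21Rik a control peak at chr13:77438728-77439235 had 594 fragments at 2.26 and lay 104618 bp from the nearest coding exon. The next highest pileups were 49 fragments in Setd2-KO (Pkp4) and 65 in control (Nt5c2). Both genes were named after their values were seen.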
